A study of Mus musculus with 27 samples.

Results

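Mammalian cells keep free zinc low by moving it across membranes and by binding it in the cytosol. Slc30 proteins (ZnT) carry zinc out of the cytosol, either out of the cell or into organelles, and Slc39 proteins (ZIP) carry it in. Metallothioneins are small cysteine-rich proteins that bind zinc and copper, and the transcription factor MTF1 senses zinc and turns on metallothionein genes and Slc30a1. In liver, metallothionein genes also respond to glucocorticoids, inflammation and oxidative stress, and Slc39a14 is known as an acute-phase zinc importer.

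The 9 genes described here encode metallothioneins, the transcription factor MTF1 and zinc transporters. They are Mt1, Mt2, Mtf1, Slc30a1, Slc30a5, Slc30a7, Slc39a4, Slc39a10 and Slc39a14, out of 19938 genes measured. They were chosen by gene symbol, with earlier results of these data known. A probe set had to be annotated to the symbol alone, and the highest mean over the 27 arrays was to decide between several, but each gene had exactly 1 such probe set, so no measured value picked between probe sets. Their mean log2 signals over the 27 arrays ran from 7.81 for Mtf1 to 12.64 for Mt2. Levels of the 9 genes are not compared with each other, because an array does not measure different probe sets on a common scale.

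The cells were TAMH, a hepatocyte line from mice transgenic for transforming growth factor alpha. Acetaminophen (APAP) and its regioisomer AMAP were each dosed at 2 mM and set against control medium without compound, with RNA taken 2, 6 or 24 h later. These compounds differ in the position of the ring hydroxyl group, para to the acetamide in APAP and meta in AMAP. The medium of every group, controls included, was serum-free and contained dexamethasone, a glucocorticoid, with nicotinamide, gentamicin, insulin, transferrin and selenium. Each of the 9 groups of treatment and time has 3 arrays, numbered 30, 31 and 32 in the labels. The labels give cell passages from 25 to 35 and 2 culture dishes per treatment, but do not say that the numbers are passages or separate cultures, so p-values measure only the spread between these arrays, which may be technical.

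The values are log2 signals after RMA, a background correction, normalization and summary of the probes of each probe set. Array medians ran from 6.92 to 7.07, and the correlation of 2 arrays of a group across genes was 0.992 to 0.997. The 3 arrays numbered 32 at 6 h lay apart from the other arrays on the fourth principal component, which held 7.64% of the variance, with scores of 11.09 or more against at most 5.70. In the control arrays none of 10 hepatocyte markers had a mean signal under 6, a level treated here as dim, and albumin had 13.68. Of 7 macrophage and leukocyte markers 5 were under 6, as were 4 of 6 endothelial and 2 of 8 stellate cell and fibroblast markers. None of the 4 biliary markers measured, of 5 listed, was under 6. The other 6 stellate cell and fibroblast markers included decorin, Dcn, at 12.02, and the macrophage marker Cd68 had 8.26. With no common scale between probe sets, a single cutoff is only a rough guide.

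APAP and AMAP at the same dose and time are the comparisons the design is built on. Among the 9 genes the zinc importer Slc39a10, which sits in the plasma membrane, was the one whose level differed between treatments beyond the threshold, an adjusted p under 0.05 in limma with Benjamini-Hochberg adjustment over all 19938 genes. It was lower after 24 h of APAP than in control or AMAP cultures. The metallothionein genes, Mtf1 and the other transporters of the 9 did not pass the threshold for either compound at any time. In bulk RNA, fewer cells of a kind and less RNA per cell cannot be told apart.

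At 24 h the APAP arrays 30, 31 and 32 had log2 Slc39a10 signals of 8.72, 8.26 and 8.47. The control arrays had 9.52, 9.41 and 9.24, and the AMAP arrays 9.40, 9.05 and 9.07. Every APAP array was below every control and every AMAP array, while AMAP and control arrays overlapped. Slc39a10 was lower with APAP than in control by a log2 difference of -0.91 ± 0.16 (SE, 3 arrays a group), a ratio of 0.534 with a 95% interval of 0.424 to 0.671 (adjusted p = 6.68e-04). It was lower with APAP than with AMAP by -0.69 ± 0.16, a ratio of 0.619 with an interval of 0.492 to 0.778 (adjusted p = 0.0110). Same-numbered APAP and AMAP arrays deviated together at 24 h, and this call held with the number as a block. The AMAP difference from control was -0.21 ± 0.16 (adjusted p = 0.6769), with a 95% interval of -0.55 to 0.12.

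The call against control was lost with all arrays numbered 31 left out, where the difference was -0.79 and the adjusted p 0.0915. It held without number 30, without number 32, and without any single array of the APAP or control group at 24 h. The call against AMAP was lost without number 31 (adjusted p = 0.2009), without the APAP array 31 alone (0.0624) and without the AMAP array 30 alone (0.0844). The direction held in each case, with differences of -0.64, -0.58 and -0.58. By p-value Slc39a10 ranked 205 of 19938 genes against control and 395 against AMAP. At 24 h the biliary marker gene Sox9, a transcription factor, was also lower with APAP, by -0.35 against control (adjusted p = 0.0441) and by -0.47 against AMAP (adjusted p = 0.0107). It was the one called of 4 biliary markers in both comparisons, where 9.33% and 4.65% of all genes were called. Against control all 4 were lower with APAP, with a median difference of -0.51, and with AMAP the median was -0.65. Against AMAP 3 of the 4 were higher with APAP, with a median of 0.18 and a range of -0.47 to 0.30. None of 10 hepatocyte markers was called in either. The part of these cell markers in the Slc39a10 difference was not tested.

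At the earlier times Slc39a10 showed no such difference. The APAP difference from control was -0.05 ± 0.16 at 2 h (adjusted p = 0.9745) and -0.04 ± 0.16 at 6 h (adjusted p = 0.9643), and APAP, AMAP and control arrays overlapped at both times. The change of the APAP effect itself was -0.86 ± 0.23 from 2 to 24 h (adjusted p = 0.1075) and -0.86 ± 0.23 from 6 to 24 h (adjusted p = 0.2669), so a difference in effect between times did not pass the threshold. The AMAP effect changed by -0.15 ± 0.23 from 2 to 24 h (adjusted p = 0.9854).

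The number of genes called differed widely between comparisons, and the 9 genes are read against it. Of the 9 genes, 0, 0 and 1 were called for APAP against control at 2, 6 and 24 h, where 0.682%, 2.50% and 9.33% of all genes were. For AMAP against control the counts were 0, 0 and 0, against 0.181%, 0.456% and 0.727% of all genes. For APAP against AMAP they were 0, 0 and 1, against 0.261%, 0.707% and 4.65%. At an unadjusted p under 0.05 the counts of the 9 genes were the same, 0, 0 and 1, then 0, 0 and 0, then 0, 0 and 1. The share of all genes under that unadjusted threshold was not counted, here or for the gene lists below. One gene of 9 is near the share of all genes called for APAP against control at 24 h. Changes of a compound's effect between times were called for 0 of the 9 genes in each of 6 comparisons, and 1 of them, Slc39a10, had an unadjusted p under 0.05 for APAP from 2 to 24 h and from 6 to 24 h. Among all genes, 0% were called for APAP from 2 to 6 h, 0.356% from 2 to 24 h and 0.0100% from 6 to 24 h, and for AMAP 0.00502%, 0% and 0%.

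No difference of either compound from control passed the threshold in the metallothionein genes. The Mt1 difference from control was 0.17 ± 0.14, 0.10 ± 0.14 and 0.21 ± 0.14 with APAP at 2, 6 and 24 h, and 0.08, 0.09 and 0.23 with AMAP. The Mt2 difference was 0.26 ± 0.22, 0.02 ± 0.22 and 0.30 ± 0.22 with APAP, and 0.06, 0.10 and 0.22 with AMAP. All 12 estimates were above 0, none was called (lowest adjusted p 0.4281 for Mt1 and 0.4675 for Mt2), and treated and control arrays overlapped in each. Same-numbered APAP and control arrays deviated together at 2 and 6 h. By number 30, 31 and 32 their Mt1 differences were 0.14, 0.19 and 0.17 at 2 h and 0.10, 0.02 and 0.18 at 6 h. Those of Mt2 were 0.12, 0.26 and 0.40 at 2 h and -0.03, -0.19 and 0.29 at 6 h. All 3 pairs were thus above 0 for Mt1 at both times and for Mt2 at 2 h, but the fit with the number as a block called none of them (adjusted p = 0.6368 and 0.7827 for Mt1 and 0.6070 and 0.9776 for Mt2). Same-numbered AMAP and control arrays deviated together at 6 h. Their differences by number were 0.21, -0.03 and 0.09 for Mt1 and 0.27, -0.06 and 0.08 for Mt2. The block fit called neither (adjusted p = 0.8261 and 0.8739). Both compounds share the control arrays, so their estimates are not independent. The 95% intervals reached at most a ratio of 1.44 for Mt1 and 1.69 for Mt2, and differences up to that size are not excluded. Between APAP and AMAP the Mt1 difference at 24 h was -0.03 with an interval of -0.32 to 0.27, and the Mt2 difference 0.08 with an interval of -0.38 to 0.53.

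**Figure D1:**
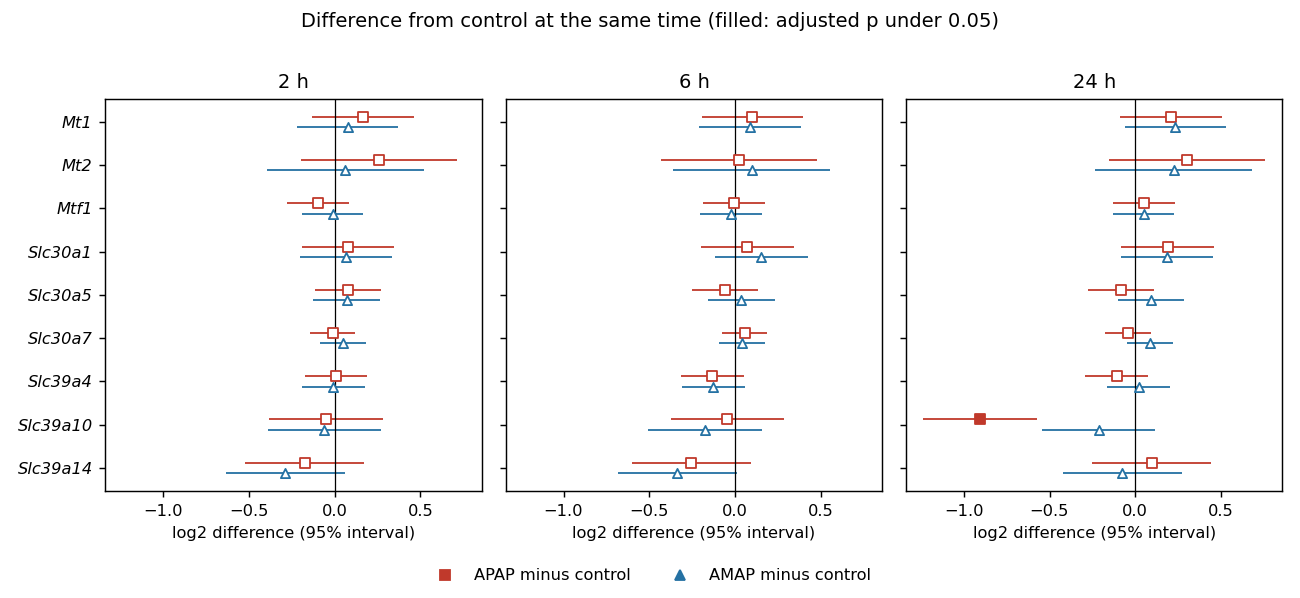
Log2 difference of each compound from control at the same time, for the 9 genes, with 95% intervals from the fit over all genes (squares APAP, triangles AMAP, n = 3 arrays a group; filled symbols have an adjusted p under 0.05). The APAP value of Slc39a10 at 24 h, -0.91, is the one filled symbol, and the intervals of Mt2 are the widest at each time.

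Mtf1 and the transporters other than Slc39a10 gave estimates between -0.34 and 0.19. Slc30a1, the exporter of the plasma membrane, differed from control by 0.07 to 0.19 across the 6 comparisons of a compound with control (lowest adjusted p 0.4346). Slc30a5 and Slc30a7, which load zinc into the secretory pathway, lay between -0.08 and 0.09, and Mtf1 between -0.10 and 0.05. Slc39a4, a zinc importer best known from the intestine, lay between -0.13 and 0.02.

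Slc39a14 had the largest estimates of these. All 3 arrays were below all 3 controls with APAP at 6 h (-0.25 ± 0.17, adjusted p = 0.6354), with AMAP at 2 h (-0.29 ± 0.17, adjusted p = 0.8240) and with AMAP at 6 h (-0.34 ± 0.17, adjusted p = 0.5511), none of them called. Groups that do not overlap are common here. Of the 9 genes, 1, 1 and 1 did not overlap for APAP against control at 2, 6 and 24 h, where 17.6%, 16.3% and 27.0% of all genes did not. For AMAP against control the counts were 1, 2 and 0, against 11.5%, 12.4% and 19.4%, and for APAP against AMAP 1, 0 and 1, against 14.4%, 10.4% and 22.4%. Beside Slc39a10 and Slc39a14 these were Mtf1 with APAP at 2 h, Slc30a1 with AMAP at 6 h, and Slc30a7 between APAP and AMAP at 2 h.

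Between times, up to 5 of the 9 genes were called within a treatment. Slc30a1 was lower at 6 h than at 2 h in all 3 treatments, to about 0.41 of its level, and was partly back at 24 h. Mt1 and Mt2 were lower at 24 h than at 2 h in all 3 treatments. Slc39a10 was higher at 6 h than at 2 h. These comparisons within a treatment share arrays: those of 6 h with 2 h and of 24 h with 2 h have the 2 h arrays in common. The fall of Slc30a1 by 6 h, the falls of Mt1 and Mt2 by 24 h and the rise of Slc39a10 by 6 h were each called in the control arrays, which received no compound. The design holds no undosed culture taken at time 0. Where arrays of 2 times are said below not to overlap, this only describes the arrays. How many of all genes do so between times was not counted, and between treatments at the same time it was 10.4% to 27.0%.

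Slc30a1 had log2 signals of 10.19, 9.89 and 10.06 on the control arrays 30, 31 and 32 at 2 h, 8.63, 8.80 and 8.80 at 6 h, and 8.96, 8.98 and 9.38 at 24 h. With APAP it had 10.24, 9.89 and 10.24, then 8.75, 8.72 and 8.98, then 9.17, 9.17 and 9.54. With AMAP it had 10.22, 10.02 and 10.09, then 8.89, 8.87 and 8.93, then 9.07, 9.23 and 9.58. The 9 arrays at 2 h lay above the 18 later ones. Within each treatment every 24 h array was above every 6 h array, and array 32 was the highest at 24 h in all 3.

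From 2 to 6 h Slc30a1 fell by 1.30 ± 0.13 in control (adjusted p = 6.79e-06), by 1.31 with APAP (3.10e-06) and by 1.21 with AMAP (2.73e-05). In control and with AMAP it had the smallest p of all 19938 genes, and with APAP the second smallest. Averaged over the 3 treatments the difference was -1.27 ± 0.08, a ratio of 0.414 with an interval of 0.371 to 0.461 (adjusted p = 6.13e-11), and -1.30 (adjusted p = 1.99e-07) without the number 32 arrays. At 24 h it was below 2 h by 0.94 in control (adjusted p = 0.0014), 0.83 with APAP (1.36e-04) and 0.82 with AMAP (6.25e-04). The calls in control and AMAP were lost without number 30 (adjusted p = 0.1019 and 0.0513). From 6 to 24 h it was higher by 0.41 ± 0.08 over the 3 treatments (adjusted p = 6.08e-04), and by 0.32 (adjusted p = 0.0066) without the number 32 arrays. Within treatments that rise was called with APAP (0.48, adjusted p = 0.0234), lost in 5 of 9 fits that left out arrays of the groups or a number (adjusted p up to 0.1756), with only the arrays compared (0.0822) and with all probe sets (0.0506), and not called in control (0.36, adjusted p = 0.4416) or with AMAP (0.40, adjusted p = 0.1609).

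**Figure D2:**
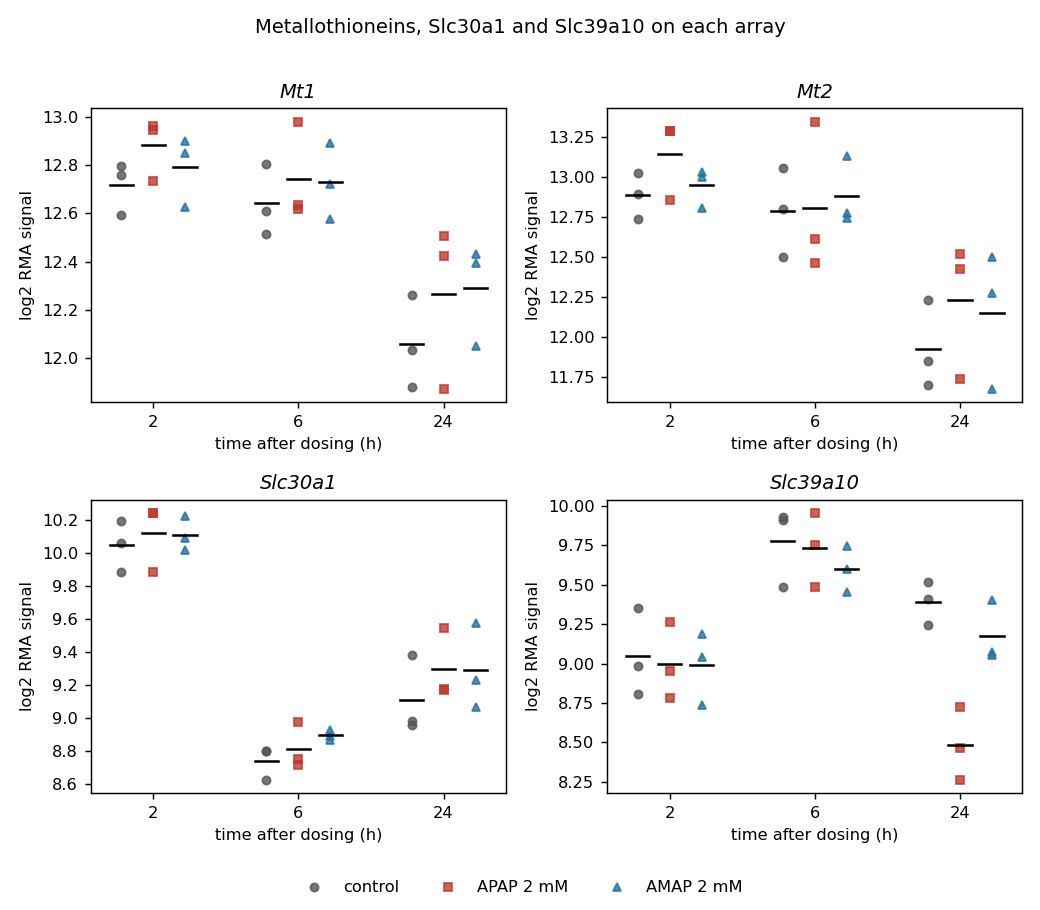
Log2 RMA signal of Mt1, Mt2, Slc30a1 and Slc39a10 on each array at 2, 6 and 24 h after dosing (points, 3 arrays a group; black bars, group means; circles control, squares APAP, triangles AMAP; each gene has its own axis, not starting at 0). Slc30a1 falls from about 10 at 2 h to under 9 at 6 h in every treatment, and the 3 APAP arrays of Slc39a10 at 24 h are below all others of that time.

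For Mt1 the control arrays 30, 31 and 32 had 12.59, 12.76 and 12.80 at 2 h, 12.51, 12.61 and 12.80 at 6 h and 12.03, 11.88 and 12.26 at 24 h. APAP arrays had 12.73, 12.95 and 12.97, then 12.62, 12.64 and 12.98, then 11.87, 12.51 and 12.42. AMAP arrays had 12.63, 12.90 and 12.85, then 12.72, 12.58 and 12.89, then 12.05, 12.43 and 12.39. In each treatment all 3 arrays at 24 h were below all arrays at 2 h and at 6 h, while 2 h and 6 h overlapped. The share of all genes with such a separation between times was not counted.

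For Mt2 the control arrays had 12.74, 13.03 and 12.89 at 2 h, 12.50, 12.80 and 13.06 at 6 h and 11.85, 11.70 and 12.23 at 24 h. APAP arrays had 12.86, 13.29 and 13.29, then 12.46, 12.61 and 13.35, then 11.74, 12.52 and 12.42. AMAP arrays had 12.81, 13.03 and 13.00, then 12.77, 12.74 and 13.13, then 11.67, 12.50 and 12.27. Again every 24 h array was below every 2 h array of its treatment, and below every 6 h array in control and with AMAP but not with APAP. Arrays numbered 30 were the lowest at 24 h with both compounds, for both genes.

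From 2 to 24 h Mt1 fell by 0.66 in control (adjusted p = 0.0238), by 0.62 with APAP (0.0041) and by 0.50 with AMAP (0.0275), with SEs of 0.14. Mt2 fell by 0.96 (adjusted p = 0.0315), 0.92 (0.0056) and 0.80 (0.0242), with SEs of 0.22. Averaged over the treatments Mt1 changed by -0.59 ± 0.08, a ratio of 0.663 (adjusted p = 1.03e-05), and Mt2 by -0.89 ± 0.13, a ratio of 0.539 (adjusted p = 1.44e-05). Neither averaged call was lost under any alternative run, leaving out a number or an array included. The calls within a treatment depended on single arrays: of 9 fits that left out a number or an array of the 2 groups, 7 ended the Mt1 call in control, 7 with AMAP and 1 with APAP (adjusted p up to 0.2777, 0.222 and 0.0551), and for Mt2 8, 6 and 2 did (up to 0.319, 0.1712 and 0.0694). With all probe sets in the fit the control and AMAP calls were also lost, for Mt1 (adjusted p = 0.0703 and 0.0538) and for Mt2 (0.0972 and 0.0526).

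Between 2 and 6 h no change was called, with averaged differences of -0.09 ± 0.08 for Mt1 (adjusted p = 0.5774) and -0.17 ± 0.13 for Mt2 (adjusted p = 0.4940). From 6 to 24 h the averaged fall was 0.50 for Mt1 (adjusted p = 2.40e-04) and 0.72 for Mt2 (adjusted p = 4.28e-04), and without the number 32 arrays 0.49 (0.0042) and 0.65 (0.0065). In control alone it was 0.59 (adjusted p = 0.1689) and 0.86 (adjusted p = 0.1733). Same-numbered arrays of these 2 groups deviated together, and both falls passed with the number as a fixed block (adjusted p = 0.0165 and 0.0162) but not as a random block (0.1089 and 0.1183). The Mt1 and Mt2 probe sets correlated at 0.99 over the 9 group means and at 0.98 over the 27 arrays. The genes are close paralogs, and shared hybridisation between their probe sets was not tested, so they are not 2 independent measurements.

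Cell markers moved over the same times. From 2 to 24 h, averaged over treatments, 6 of 10 hepatocyte markers were called higher and 2 lower, and 3 of 4 biliary markers were called lower (Krt19 by 0.73, Krt7 by 0.58, Sox9 by 0.56). Of all genes 26.4% were called there. The log2 of the summed hepatocyte signal was 15.02 to 15.09 at 2 h, 15.10 to 15.16 at 6 h and 15.20 to 15.43 at 24 h over the 3 treatments. That of the biliary markers was 11.36 to 11.52, then 11.04 to 11.57, then 10.56 to 11.35. Such sums weigh the probe sets with the highest signals most and do not represent each marker. No macrophage, leukocyte or endothelial marker was called, and 1 of 8 stellate cell and fibroblast markers was. The part of these shifts in the time differences of the 9 genes was not tested.

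Slc39a10 had 9.35, 8.99 and 8.81 on the control arrays at 2 h and 9.49, 9.91 and 9.93 at 6 h. With APAP it had 9.26, 8.95 and 8.78 at 2 h and 9.48, 9.75 and 9.95 at 6 h, and with AMAP 9.18, 9.04 and 8.73, then 9.45, 9.60 and 9.74. In all 3 treatments every 6 h array was above every 2 h array. Number 30 was the highest at 2 h and the lowest at 6 h in all 3.

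From 2 to 6 h it rose by 0.69 ± 0.09 over the treatments, a ratio of 1.61 (adjusted p = 2.11e-05), and by 0.48 (adjusted p = 0.0178) without the number 32 arrays. It rose by 0.73 in control (adjusted p = 0.0268) and 0.73 with APAP (0.0316), and the AMAP difference was 0.61 (0.0517). The control and APAP calls were each lost in 6 of 9 fits that left out a number or an array of the groups (adjusted p 0.1183 to 0.5143, and 0.0908 to 0.421), with only the arrays compared in the fit (0.0902 and 0.0849) and with all probe sets in it (0.0775 and 0.0971). At 24 h the APAP arrays lay below those of control and AMAP, but the change of the APAP effect between times was not called (adjusted p = 0.1075 from 2 h and 0.2669 from 6 h). With APAP the level was below that of 2 h by 0.51 (adjusted p = 0.0307) and below that of 6 h by 1.24 (adjusted p = 6.46e-05), the second call lost under no alternative and the first lost in 5 of 9 such fits (adjusted p up to 0.3708), with array weights (-0.40, adjusted p = 0.0622) and with all probe sets in the fit (adjusted p = 0.060). Control and AMAP stood 0.34 and 0.19 above 2 h, neither called (adjusted p = 0.3318 and 0.5153). Slc39a10 at 24 h with APAP was the lowest of its 9 group means, 8.48, and did not overlap the next, AMAP at 2 h with 8.99.

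**Figure D3:**
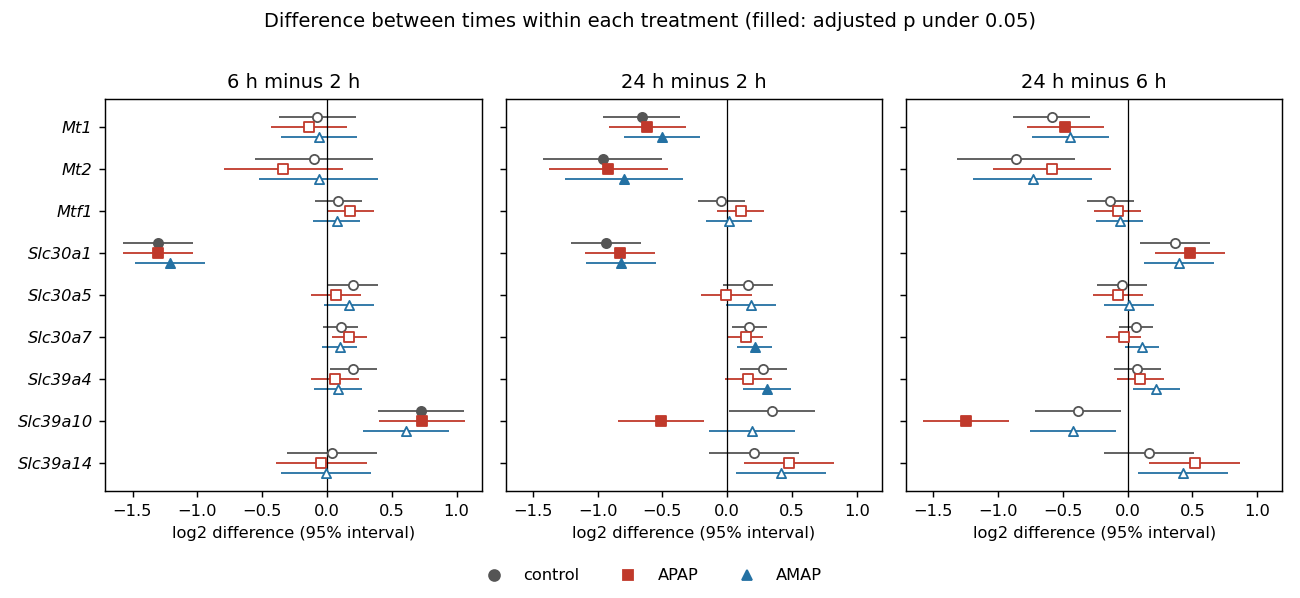
Log2 difference between times within each treatment for the 9 genes, with 95% intervals (circles control, squares APAP, triangles AMAP; n = 3 arrays a group; filled symbols have an adjusted p under 0.05). Slc30a1 at 6 h against 2 h is near -1.3 in all 3 treatments, and Slc39a10 at 24 h against 6 h is -1.24 with APAP against -0.38 in control. The change of the APAP effect on Slc39a10 from 6 to 24 h was not called (adjusted p = 0.2669).

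The other 5 genes moved little. Averaged over treatments from 2 to 24 h, Slc30a7 rose by 0.17 ± 0.04 (adjusted p = 9.79e-04), Slc39a4 by 0.25 ± 0.05 (6.50e-04) and Slc39a14 by 0.37 ± 0.10 (0.0061). Every 24 h array of Slc30a7 and of Slc39a4 was above every 2 h array of its treatment, a pattern whose share among all genes was not counted. Slc39a4 on single arrays was between 11.72 and 11.89 at 2 h and between 11.91 and 12.18 at 24 h, and Slc30a7 between 10.17 and 10.27 and between 10.26 and 10.56. Slc30a5 and Mtf1 were called between no times in the fit of all arrays, with averaged differences from 2 to 24 h of 0.11 (adjusted p = 0.1448) and 0.02 (adjusted p = 0.7828). Mtf1 stayed between 7.63 and 8.07 on all 27 arrays, and its difference from 6 to 24 h was -0.09 (adjusted p = 0.2899), or -0.18 (adjusted p = 0.0266) without the number 32 arrays.

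The Slc39a14 rise leaned on array 31, which had 11.17 with APAP and 10.85 with AMAP at 24 h against 10.23 to 10.60 on the other arrays of those groups. Without number 31 the averaged difference from 2 to 24 h was 0.16 (adjusted p = 0.2144). From 6 to 24 h it was 0.37 (adjusted p = 0.0114), and 0.17 (adjusted p = 0.2679) without number 31 and 0.37 (adjusted p = 0.1378) without number 30. The Slc30a7 call from 2 to 24 h was lost without number 31 (0.14, adjusted p = 0.0788). Its rise of 0.13 from 2 to 6 h (adjusted p = 0.0356) was lost in 14 fits that left out arrays (adjusted p up to 0.2752) and with each array centred on its median.

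**Figure D4:**
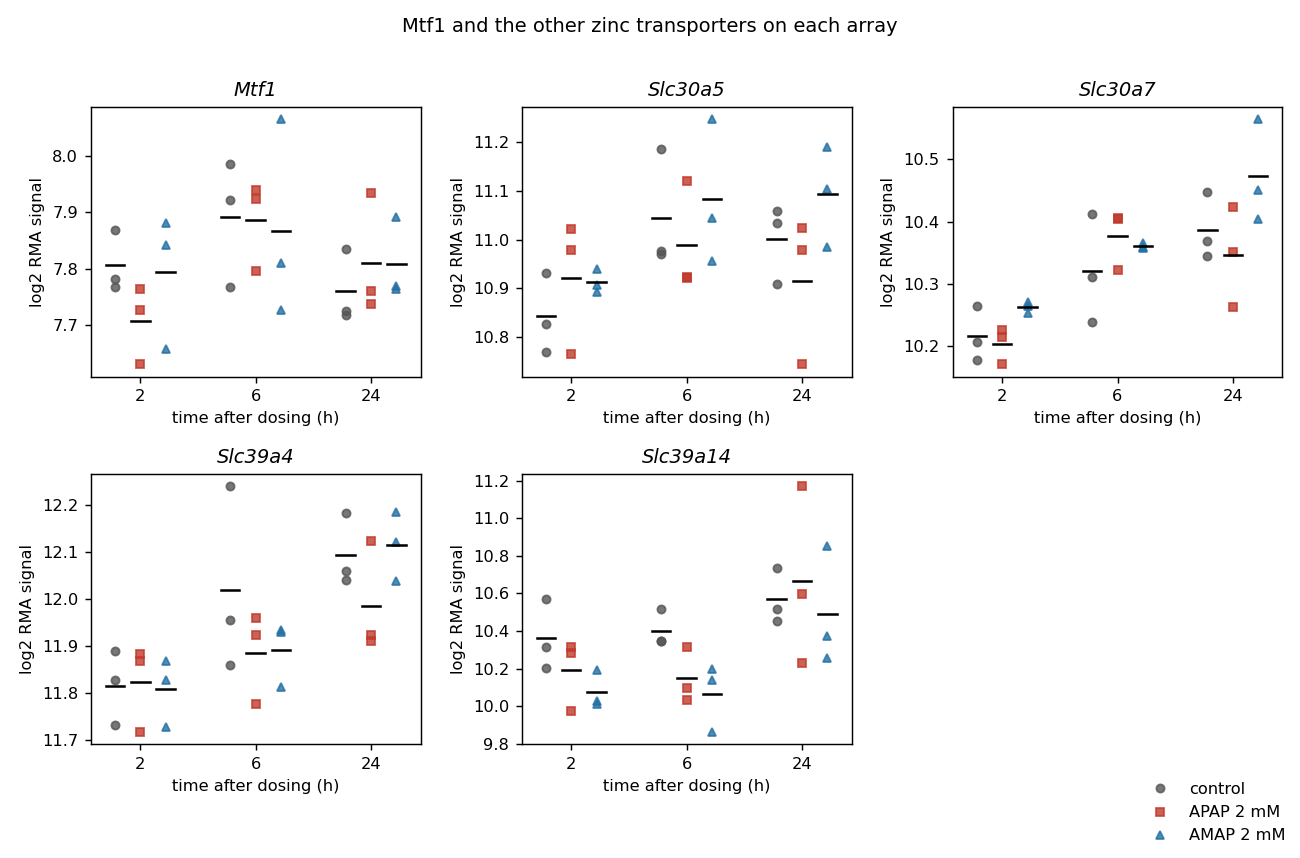
Log2 RMA signal of Mtf1, Slc30a5, Slc30a7, Slc39a4 and Slc39a14 on each array at 2, 6 and 24 h after dosing (points, 3 arrays a group; black bars, group means; circles control, squares APAP, triangles AMAP; each gene has its own axis, not starting at 0). Mtf1 stays between 7.63 and 8.07, and the highest Slc39a14 point, 11.17, is array 31 with APAP at 24 h.

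Counted over the 9 genes, control cultures had 2 called from 2 to 6 h, 3 from 2 to 24 h and 0 from 6 to 24 h, where 0.707%, 1.14% and 0.0150% of all genes were called. With APAP the counts were 2, 4 and 3, against 0.632%, 14.9% and 7.70%. With AMAP they were 1, 5 and 0, against 1.54%, 9.51% and 0.497%. Averaged over the 3 treatments, 3, 6 and 5 of 9 were called, against 8.69%, 26.4% and 13.5% of all genes. The 5 include Slc39a10, whose averaged difference of -0.68 combines -1.24 with APAP and, not called, -0.38 in control and -0.42 with AMAP. At an unadjusted p under 0.05 the 2 zero counts were 4 in control and 6 with AMAP. The share of all genes under that unadjusted threshold was not counted, so these 2 counts cannot be set against the shares above. Since the 9 genes were picked with earlier results known, these shares describe them and test nothing.

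MTF1 binds the metal response element, whose core reads TGCACNC or TGCGCNC. Of the 9 genes, 7 had 8 upstream windows of 250 bases in RefSeq's GRCm38.p6 table. Both strands were searched, and 7032 of 32851 windows of that length, 21.4%, held 1 match or more. The counts were 3 in Mt2, 1 each in Mt1, Slc30a1 and Slc30a5, and 0 in Mtf1, Slc30a7 and both windows of Slc39a10. Only 1.3% of all windows held 3 or more. The windows of Mt2 (chr8:94172368-94172617, plus strand) and Slc30a1 (chr1:191906531-191906780, plus strand) are shown as the window with the most matches and that of the gene with the largest time difference, with matches in capitals. The window of Mt1, which also fell over time, is not shown. A match on the minus strand appears as its complement read backwards, at bases 50 to 44 before the listed start in Mt2 and 43 to 37 in Slc30a1. A match describes these letters only, and a listed start need not be the one these cells use.
Mt2: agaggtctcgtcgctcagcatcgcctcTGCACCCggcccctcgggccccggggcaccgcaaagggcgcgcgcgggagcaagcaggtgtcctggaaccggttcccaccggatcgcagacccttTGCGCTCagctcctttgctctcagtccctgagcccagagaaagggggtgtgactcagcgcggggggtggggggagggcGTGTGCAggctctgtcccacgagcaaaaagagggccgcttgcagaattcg
Slc30a1: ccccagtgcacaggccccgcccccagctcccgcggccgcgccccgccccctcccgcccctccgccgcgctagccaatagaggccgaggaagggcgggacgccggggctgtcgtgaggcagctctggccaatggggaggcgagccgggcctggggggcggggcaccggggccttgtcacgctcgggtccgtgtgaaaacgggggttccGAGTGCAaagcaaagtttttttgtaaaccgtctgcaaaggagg

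Other zinc genes gave no call in the treatment comparisons. Of 20 further metallothionein, Slc30 and Slc39 genes, 0 passed in any of the 9, and at an unadjusted p under 0.05 their counts were 1, 0 and 3 for APAP against control, 0, 1 and 3 for AMAP against control and 1, 0 and 3 for APAP against AMAP at 2, 6 and 24 h. These unadjusted counts have no share of all genes beside them. Averaged over treatments, 1 of 20 was called higher from 2 to 6 h, 6 from 2 to 24 h and 1 from 6 to 24 h, and none lower, where 8.69%, 26.4% and 13.5% of all genes were called in either direction. The 6 were Slc30a8 and the importers Slc39a1, Slc39a2, Slc39a3, Slc39a11 and Slc39a13, named after their values were seen, with log2 rises of 0.18 to 0.25. The median of the 20 from 2 to 24 h was 0.07, against 0.02 over all genes.

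Of 5 other genes reported as MTF1 targets, 0 were called in the 9 treatment comparisons, and 1 had an unadjusted p under 0.05 for APAP against AMAP at 6 h and 1 at 24 h. Averaged over treatments, Gclc, the catalytic subunit of the enzyme that starts glutathione synthesis, fell by 0.41 from 2 to 6 h (adjusted p = 9.84e-05), and Ndrg1, a stress-responsive gene, by 0.32 (adjusted p = 0.0158), where 8.69% of all genes were called. Both were named after their values were seen. The list's median was -0.15, against 0.02 over all genes, and 2 of the 5 differences were above 0. From 2 to 24 h, 2 of the 5 were called lower, with a median of -0.24, where 26.4% of all genes were called. From 6 to 24 h, 1 was called lower, with a median of 0.004, where 13.5% of all genes were called.

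Of 18 copper and iron genes, Slc11a2, a divalent metal importer, was lower after 24 h of APAP than in control (-0.28 ± 0.09, adjusted p = 0.0491) and than with AMAP (-0.36 ± 0.09, adjusted p = 0.0173). It was the one called in the 6 comparisons with control. At 24 h 1 of the 18 was thus called against control and 1 against AMAP, where 9.33% and 4.65% of all genes were called. From 2 to 24 h, averaged over treatments, 4 of the 18 were called higher and 4 lower, where 26.4% of all genes were called.

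Of 12 glucocorticoid-induced genes, Sgk1, a kinase, was lower with APAP at 6 h (-0.51 ± 0.10, adjusted p = 0.0059). At 24 h the phosphatase gene Dusp1 was higher with APAP (0.64 ± 0.18, adjusted p = 0.0268), and Fkbp5, which encodes a chaperone partner of the glucocorticoid receptor, was lower (-0.29 ± 0.09, adjusted p = 0.0337). Lcn2, an iron-carrier binding protein gene, was lower with AMAP at 24 h (-0.64 ± 0.15, adjusted p = 0.0400). Between APAP and AMAP the Dusp1 difference at 2 h was 0.85 (adjusted p = 0.0403). At 24 h the differences were 0.97 for Lcn2 (adjusted p = 1.82e-04), 0.82 for Dusp1 (0.0085) and -0.38 for Fkbp5 (0.0107). Against control, 1 of the 12 was called for APAP at 6 h, 1 higher and 1 lower for APAP at 24 h, and 1 for AMAP at 24 h. The shares of all genes were 2.50%, 9.33% and 0.727%. Between APAP and AMAP, 1 was called at 2 h, and 2 higher and 1 lower at 24 h, where 0.261% and 4.65% of all genes were called. From 2 to 6 h, averaged over treatments, 6 of the 12 were called lower and 1 higher, where 8.69% of all genes were called, and the median was -0.24, against 0.02 over all genes. From 2 to 24 h, 4 were called lower and 1 higher, with a median of -0.07, where 26.4% of all genes were called. From 6 to 24 h, 0 were called lower and 2 higher, with a median of 0.07, where 13.5% of all genes were called. Dexamethasone was in the medium of every group, and its part in these time differences was not tested.

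Profiles over the 9 group means were compared by Pearson correlation among 2475 genes outside the 9 described here. These had a mean of at least 6 in 1 group or more and a range of group means of at least 0.5. Mt2, with a correlation of 0.99 to Mt1, was thus not searched. Most like Mt1 among the 2475 were Pdlim7 (0.97), Btbd10 (0.95), Tpgs2 (0.94), Fam210b (0.94) and Lmcd1 (0.93). Most like Slc30a1 were Klf9 (0.94), Gclc (0.92), Notch1 (0.91), Rgs2 (0.88) and Tfdp2 (0.88). Over the single arrays the correlations were lower, 0.47 to 0.81 for Mt1 and 0.71 to 0.85 for Slc30a1. The points share the same arrays and time course, and the ranking is a description.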

How the data were processed

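The 27 Affymetrix Mouse Gene 1.0 ST arrays were processed by the authors with RMA in Affymetrix Expression Console 1.1, per the submitters' processing notes, and the deposited values are log2, 1 per probe set on each array. The base was inferred from their span of 1.34 to 15.18, and detection calls and scanner files were not used here. Of 35557 probe sets, 21789 carried a single gene symbol, 1621 several and 12147 none; the probe set with the highest mean was kept for each of 19938 genes. No further normalization or filter was applied.

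limma 3.58.1 in R 4.3.3 fitted 9 group means to all arrays (18 residual degrees of freedom) with eBayes, and Benjamini-Hochberg adjusted each comparison over all genes, two-sided, with calls at 0.05. The fit was also run on simulated data with independent noise between arrays, as a check of the code, which does not bear on the calls of the 9 genes. The 9 genes and the gene lists were chosen with earlier results of these data known. Comparisons between times within APAP and AMAP, of 24 h with 6 h, and averaged over treatments were added after the data were seen. All 9 genes are named. Of the lists, genes called in a treatment comparison are named (up to 4, smallest p first). For Mt1 and Slc30a1 the 5 genes outside the 9 that were most like them are named. Gclc, Ndrg1, Krt7, Krt19 and the further zinc genes are named for calls between times, and albumin, Dcn and Cd68 for their levels.

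Same-numbered arrays were taken as paired where every pair's deviations from the group means correlated above 0.1. That held for APAP against control at 2 and 6 h, AMAP against control at 6 h, APAP against AMAP at 6 and 24 h, APAP at 6 h against 2 h, and control at 24 h against 6 h, and comes from the data. Alternatives were the array number as a block, other scalings, weights and filters, and leaving out numbers and arrays. Promoter windows came from RefSeq (GRCm38.p6), matched for 7 of the 9 genes.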

Additional observations from a re-analysis of the deposited data

How the results depend on the processing

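No value reversed a call under 10 alternatives that kept all arrays or when arrays were left out. The count of the 9 genes called in the treatment comparisons was the same under all 10, and was 0 to 1 for APAP against control and for APAP against AMAP at 24 h when arrays were left out. Fitting only the arrays compared gave 1 in place of 2 genes called for control and for APAP at 6 h against 2 h, 1 in place of 3 for APAP at 24 h against 6 h, and 3 in place of 5 for AMAP at 24 h against 2 h. Keeping all probe sets gave those same counts, and 1 in place of 3 for control at 24 h against 2 h. Array weights gave 2 in place of 0 for control and 5 in place of 3 for APAP at 24 h against 6 h.

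With the replicate number as a block, the count was 2 in place of 0 for control and for AMAP at 24 h against 6 h (Mt1 and Mt2 in both), and 2 in place of 1 for AMAP at 6 h against 2 h (Slc39a10 added). The block moved no other count by more than 1.5 times. The last count was also 2 with the number as a random block (consensus correlation 0.041), quantile normalization, dim genes left out or a variance trend. Leaving out arrays gave 1 to 2 for control and APAP at 6 h against 2 h, 0 to 3 for control at 24 h against 2 h, 2 to 5 and 1 to 3 for APAP at 24 h against 2 h and 6 h, 1 to 2 and 0 to 4 for AMAP at 6 h and 24 h against 2 h, and 2 to 3, 4 to 7 and 4 to 6 for the averages over treatments. The causes were not tested. Precision is limited by having 3 arrays in a group: the median SE of a treatment difference was 0.10.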
